A study of Homo sapiens with 6 samples.

Results

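The genes described here encode the machinery that builds, loads and switches translation initiation factor eIF2, in U2OS cells, a human osteosarcoma line, after knockdown of NUDT5. They were named by symbol: CDC123, the 3 eIF2 subunit genes EIF2S1, EIF2S2 and EIF2S3, the eIF2 kinase genes EIF2AK1, EIF2AK3 and EIF2AK4, the phosphatase targeting genes PPP1R15A and PPP1R15B, and the exchange factor gene EIF2B5. All 10 were found among the 19977 gene symbols of the deposited table, and all 10 were among the 12236 genes whose mean reached 1 TPM. TPM is a transcript abundance scaled for gene length and library total. The group called siCtrl was transfected with a non-targeting control siRNA and the group called siNUDT5 with an siRNA against NUDT5, a NUDIX hydrolase of ADP-ribose. There were 3 libraries in each group and no other treatment, and RNA was taken 48 hours after transfection. Nothing in the labels tells whether the libraries of a group came from separate cultures, so the spread between them may be technical. The genes were chosen by their role in eIF2 biology with the TPM difference between these same libraries already known, and so count as selected on that difference. Their values are therefore given as a description, without p-values, and only the number of them past the call rule for all genes is given, beside that of all genes.

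eIF2 is a complex of an alpha, a beta and a gamma subunit that carries the initiator methionyl-tRNA and GTP to the small ribosomal subunit. CDC123 is a cytosolic protein that binds the gamma subunit and is needed for the complex to assemble. Stress kinases phosphorylate the alpha subunit, which turns eIF2 into an inhibitor of its own exchange factor eIF2B, lowers general translation and favours the translation of a few mRNAs such as that of ATF4. Protein phosphatase 1, guided to eIF2 by PPP1R15A or PPP1R15B, removes the phosphate.

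The libraries summed to the same TPM total, and the steps between low values gave relative depths of 64.1% to 118% of that of siCtrl 1. The library siCtrl 2 was the shallowest and stood apart: it differed from the other siCtrl libraries by a median of 0.296 and 0.227 on the log2(TPM + 1) scale, against 0.0967 to 0.134 for the other within-group pairs. In 8 of the 10 genes siCtrl 2 held the highest control value, so several results are also given without it. Of the osteoblast and mesenchymal markers, VIM, SPARC and COL1A1 were high, with at least 318 TPM in every library, RUNX2 stood at 7.58 to 13.4 TPM, and COL1A2 was near 0, at most 0.393 TPM. RUNX2, SPARC and VIM were higher in every siNUDT5 library than in any control. Of the epithelial markers, KRT8 stood at 229 to 310.01 TPM and CDH1 at 1.82 to 2.44 TPM, and EPCAM was lower in every siNUDT5 library, at 5.10 to 5.70 TPM against 7.18 to 12.8 TPM in siCtrl. The part of these marker differences in the other results was not tested. In the blood list, CD3E was listed at 0 in every library and PTPRC stood at 0.328 TPM or less. In bulk RNA, fewer cells of a type and less RNA per cell cannot be told apart.

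CDC123 lies next to the gene that the siRNA was aimed at. In RefSeq both genes are on chromosome 10, head to head on opposite strands, with 297 bases between their starts. The promoter windows, 250 bases before to 50 bases after each start, are shown because these windows share 204 bases. They are RefSeq sequences of GRCh38.p14, a build other than the hg19 named in the submitters' processing notes. The CDC123 window is chr10:12195938-12196237 on the plus strand and the NUDT5 window is chr10:12195842-12196141 on the minus strand, each written 5′ to 3′. Capitals mark the ETS-family core CCGGAAG, searched on both strands.
CDC123: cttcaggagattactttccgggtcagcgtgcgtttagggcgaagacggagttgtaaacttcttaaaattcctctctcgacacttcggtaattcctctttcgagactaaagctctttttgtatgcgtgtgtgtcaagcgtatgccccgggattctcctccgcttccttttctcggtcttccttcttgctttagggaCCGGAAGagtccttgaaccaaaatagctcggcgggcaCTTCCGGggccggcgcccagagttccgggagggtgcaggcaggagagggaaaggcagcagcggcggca
NUDT5: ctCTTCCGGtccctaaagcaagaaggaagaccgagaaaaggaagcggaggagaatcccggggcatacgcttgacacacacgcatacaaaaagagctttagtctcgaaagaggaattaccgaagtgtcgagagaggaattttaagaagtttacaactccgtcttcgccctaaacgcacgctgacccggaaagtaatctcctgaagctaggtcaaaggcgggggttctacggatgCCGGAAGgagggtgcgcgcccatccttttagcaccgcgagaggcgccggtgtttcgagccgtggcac
Each window held 2 matches. In CDC123 they began 55 and 18 bases before the start, and the first of these is the match that begins 248 bases before the NUDT5 start. The core was found in 10.3% of all 35116 promoter windows of the table and in 16.8% of the 13643 windows of tested genes. These matches describe the sequence and identify no bound factor.

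**Figure D1:**
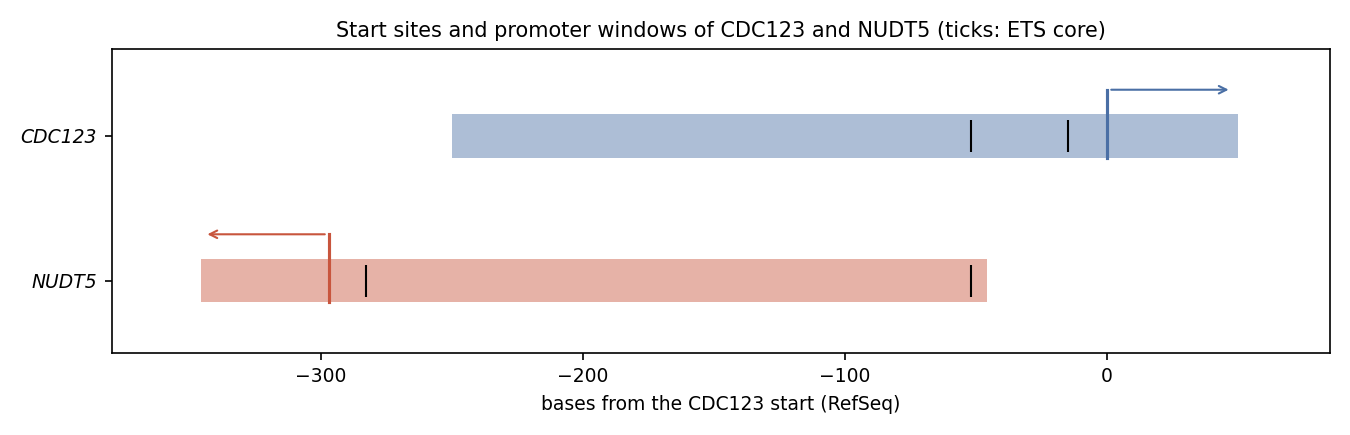
Positions of the RefSeq start sites (arrows) and of the promoter windows (bars) of CDC123 and NUDT5, in bases from the CDC123 start on the horizontal axis. Ticks mark ETS cores; the starts point away from each other, 297 bases apart, and the windows share 204 bases that hold 1 core.

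The targeted transcript was reduced in every siNUDT5 library. NUDT5 had TPM values of 46.2, 49.0 and 52.0 across siCtrl 1, 2 and 3 against 3.04, 2.74 and 2.67 across siNUDT5 1, 2 and 3. That left 5.74% of the control mean.

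CDC123, the assembly factor, was the member with the lowest value relative to control. It had TPM values of 315, 373 and 340 across siCtrl 1, 2 and 3 against 204, 201 and 195 across siNUDT5 1, 2 and 3. Every siNUDT5 library was below every siCtrl library, and the siNUDT5 values lay close together. Group means were 343 ± 28.9 TPM and 200.3 ± 4.61 TPM (SD, n = 3 per group), a level 41.6% lower, and the log2 difference was -0.77 (standard error 0.0816 from the fit over all genes). Of the 12236 genes tested 144, or 1.18%, had a lower log2 difference. Without siCtrl 2 the control mean was 328 TPM and the log2 difference -0.71. CDC123 kept far more of its control level than NUDT5, and the ratio of CDC123 to NUDT5 TPM went from 6.99 ± 0.559 in siCtrl to 71.2 ± 3.58 in siNUDT5 (SD, n = 3 per group). The next genes of the table on either side in RefSeq's order were read from the same table. SEC61A2, on the NUDT5 side, encodes a subunit of the translocation channel of the endoplasmic reticulum and stood at 22.9 ± 0.633 TPM in siCtrl and 22.8 ± 1.32 TPM in siNUDT5 (SD, n = 3 per group). CAMK1D, a calcium-dependent kinase gene on the CDC123 side, stood at 3.46 ± 0.327 and 4.60 ± 0.423 TPM (SD, n = 3 per group), a log2 difference of 0.33 that did not pass (limma, adjusted p = 0.0906).

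The 3 subunit mRNAs did not move together. EIF2S1 encodes the alpha subunit, which carries the phosphorylated serine. It had TPM values of 233, 308 and 258 across siCtrl 1, 2 and 3 against 279, 259 and 271 across siNUDT5 1, 2 and 3. The groups overlapped, with siCtrl 2 above all other libraries, and the log2 difference was 0.03 (standard error 0.106). It was 0.14 without siCtrl 2, where the remaining controls lay below all siNUDT5 libraries, and -0.03 under median-ratio scaling, so no direction is given for EIF2S1.

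EIF2S2 encodes the beta subunit. It had TPM values of 335, 400.5 and 351 across siCtrl 1, 2 and 3 against 286, 261 and 279 across siNUDT5 1, 2 and 3. All 3 siNUDT5 values were below the lowest control, with means of 362 ± 34.0 and 275 ± 12.7 TPM (SD, n = 3 per group) and a log2 difference of -0.39 (standard error 0.0869).

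EIF2S3 encodes the gamma subunit, the one that CDC123 binds. It had TPM values of 101, 135 and 114 across siCtrl 1, 2 and 3 against 163, 154 and 154 across siNUDT5 1, 2 and 3. Here every siNUDT5 library was above every control, with means of 117 ± 17.0 and 157 ± 5.34 TPM (SD, n = 3 per group) and a log2 difference of 0.43 (standard error 0.109). EIF2S3L, a near-identical copy of EIF2S3, stood at 5.73 ± 0.468 TPM in siCtrl and 8.54 ± 0.393 TPM in siNUDT5 (SD, n = 3 per group). How reads shared between the copies were assigned was not given in the labels, so the split between them is uncertain, and the copy held 0.0439 to 0.0599 of the EIF2S3 level in every library.

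**Figure D2:**
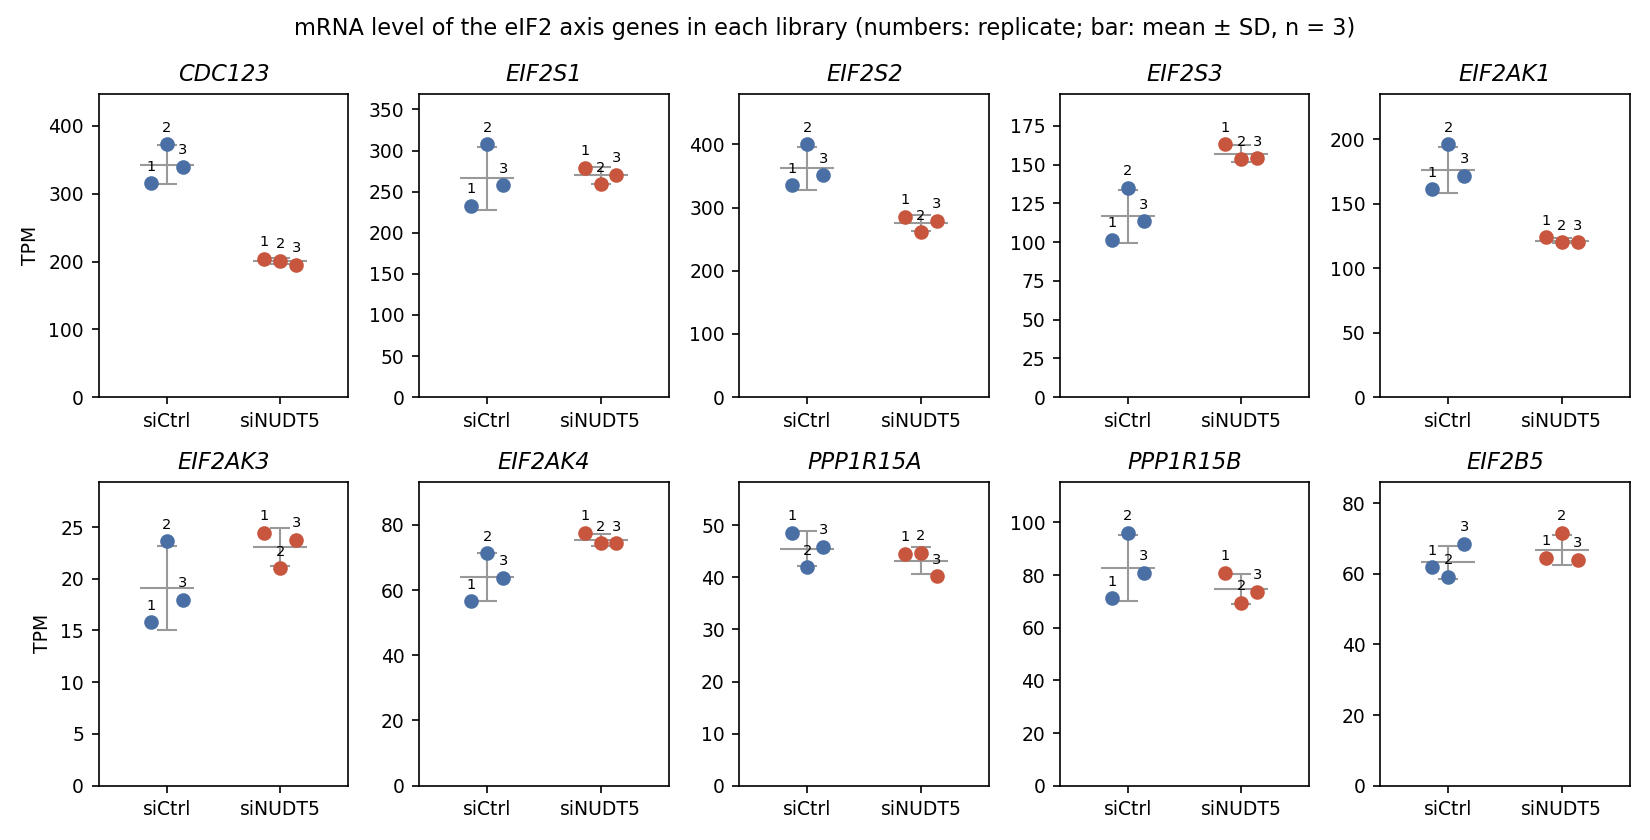
TPM of the 10 genes in each library, on axes that start at 0, with points for libraries numbered by replicate and grey bars for the mean ± SD (n = 3 each). CDC123, EIF2S2 and EIF2AK1 were lower in all 3 siNUDT5 libraries than in any control, and EIF2S3 and EIF2AK4 higher.

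Ratios of TPM within a library do not depend on its total and describe the composition directly. EIF2S2 and EIF2S3 were named with this contrast known, so their separation in these ratios is a description and no test. Summed over the 3 subunits, TPM stood at 745 ± 89.1 in siCtrl and 702 ± 27.0 in siNUDT5 (SD, n = 3 per group), and the groups overlapped. Within that sum the beta subunit EIF2S2 made up 50.1%, 47.5% and 48.6% across siCtrl 1, 2 and 3 against 39.2%, 38.7% and 39.7% across siNUDT5 1, 2 and 3. The gamma subunit EIF2S3 made up 15.2%, 16.0% and 15.7% across siCtrl 1, 2 and 3 against 22.4%, 22.8% and 21.9% across siNUDT5 1, 2 and 3. The alpha subunit EIF2S1, for whose level no direction is given, made up 35.7 ± 0.856% in siCtrl and 38.4 ± 0.0612% in siNUDT5 (SD, n = 3 per group). The shares of siCtrl 2 lay nearer to those of the other controls than to any siNUDT5 library, although its levels were high. The ratio of EIF2S2 to EIF2S3 was accordingly 3.12 ± 0.171 in siCtrl and 1.75 ± 0.0572 in siNUDT5 (SD, n = 3 per group).

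The assembly factor was set against its client in the same way. The ratio of CDC123 to EIF2S3 TPM was 3.11, 2.76 and 2.99 across siCtrl 1, 2 and 3 against 1.25, 1.31 and 1.27 across siNUDT5 1, 2 and 3. Group means were 2.95 ± 0.176 and 1.28 ± 0.0297 (SD, n = 3 per group), and the siNUDT5 ratio was 0.432 of the control ratio. Of the members CDC123 had the lowest log2 difference and EIF2S3 the highest, and both were named with this contrast known. A wide gap in this ratio was therefore built in and is no test. Set against EIF2S1 the siNUDT5 ratio was 0.574 of control, against EIF2S2 0.770 and against the mean of the 3 subunits 0.619. These are ratios of mRNA, and protein was not measured in the files used here. The size of the ratios to EIF2S3 also depends on how reads shared with EIF2S3L were assigned.

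**Figure D3:**
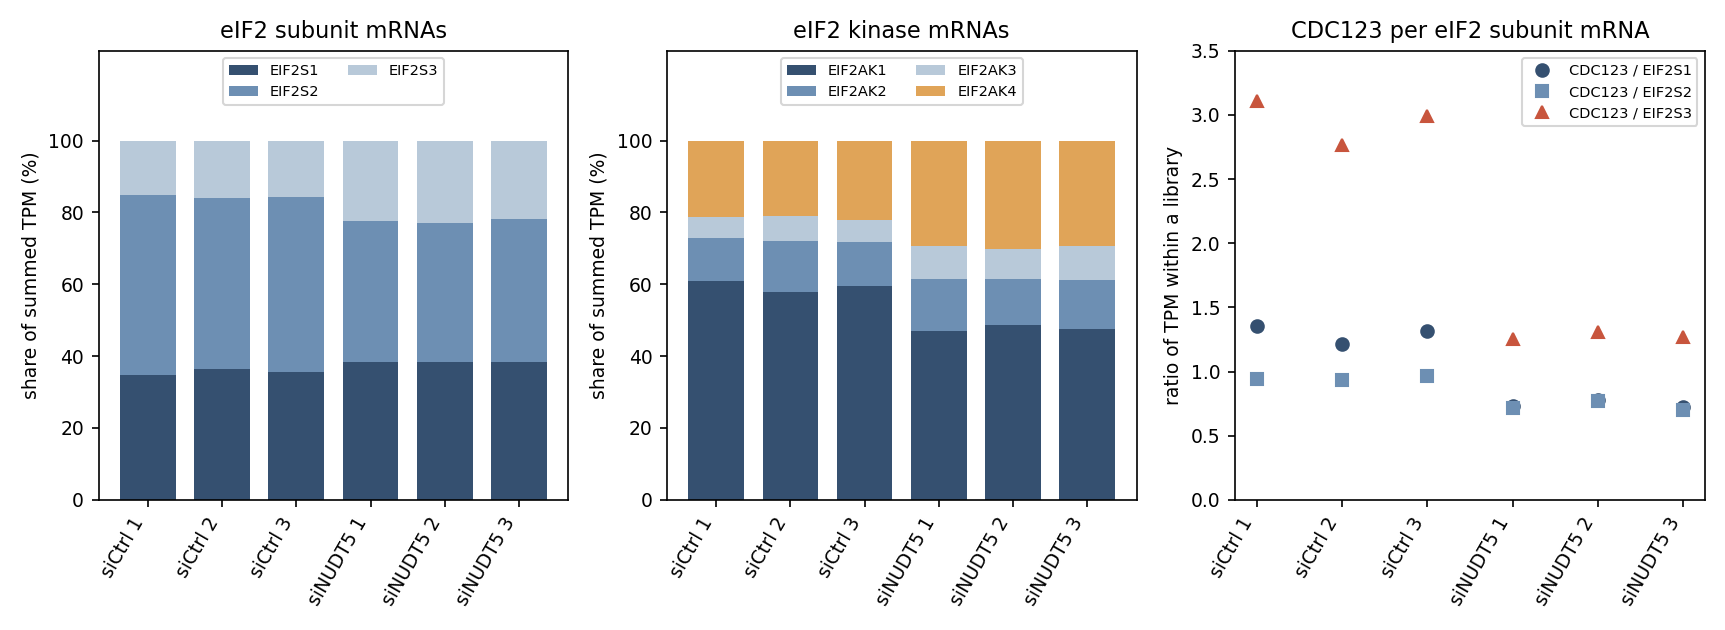
Left and middle, share of summed TPM (%) held by each eIF2 subunit mRNA and each eIF2 kinase mRNA in the 6 libraries; right, ratio of CDC123 TPM to that of each subunit in each library. EIF2S1, EIF2S3, EIF2AK3 and EIF2AK4 took a larger share in all 3 siNUDT5 libraries than in any control, and CDC123 to EIF2S3 went from about 2.95 to 1.28.

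Among the kinases EIF2AK1 was lower while EIF2AK3 and EIF2AK4 were not. EIF2AK1 encodes HRI, the kinase that answers heme shortage and mitochondrial stress. It had TPM values of 161, 196 and 172 across siCtrl 1, 2 and 3 against 124, 120.2 and 120.3 across siNUDT5 1, 2 and 3. No siNUDT5 library reached the lowest control, the level was 31.1% lower, and the log2 difference was -0.53 (standard error 0.0893). EIF2AK4 encodes GCN2, which senses uncharged tRNA, and had TPM values of 56.6, 71.3 and 63.7 across siCtrl 1, 2 and 3 against 77.6, 74.3 and 74.4 across siNUDT5 1, 2 and 3. All siNUDT5 values were higher than all controls, by a narrow margin over siCtrl 2, and the log2 difference was 0.24 (standard error 0.0989). EIF2AK3 encodes PERK, the kinase of the endoplasmic reticulum membrane, and had TPM values of 15.8, 23.6 and 18.0 across siCtrl 1, 2 and 3 against 24.5, 21.0 and 23.8 across siNUDT5 1, 2 and 3. Its groups overlapped through siCtrl 2, and the log2 difference was 0.27 (standard error 0.147), or 0.43 without siCtrl 2.

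The fourth kinase gene, EIF2AK2, encodes PKR, which binds double-stranded RNA, and is an interferon-stimulated gene. It was taken from the list of other initiation genes and did not pass, at 38.5 ± 9.01 TPM in siCtrl and 34.7 ± 3.46 TPM in siNUDT5 (SD, n = 3 per group, limma, adjusted p = 0.641), and its log2 difference of -0.13 became 0.05 without siCtrl 2. Of the TPM summed over the 4 kinases, EIF2AK1 held 60.8%, 57.7% and 59.5% across siCtrl 1, 2 and 3 against 46.9%, 48.7% and 47.6% across siNUDT5 1, 2 and 3. EIF2AK4 held 21.5 ± 0.584% in siCtrl and 29.6 ± 0.392% in siNUDT5, and EIF2AK3 6.38 ± 0.522% and 9.05 ± 0.474% (SD, n = 3 per group). A lower EIF2AK1 level, as the largest part of the sum, by itself raises the other shares. In TPM EIF2AK4 stood at 118% and EIF2AK3 at 121% of the control mean, and the EIF2AK3 groups overlapped. EIF2AK1 remained the most abundant kinase mRNA and EIF2AK3 the least abundant in all 6 libraries.

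The phosphatase targeting genes overlapped between the groups. PPP1R15A encodes GADD34, the stress-induced targeting subunit, and had TPM values of 48.6, 41.9 and 45.9 across siCtrl 1, 2 and 3 against 44.6, 44.7 and 40.2 across siNUDT5 1, 2 and 3. Its log2 difference was -0.07 (standard error 0.0934). PPP1R15B encodes CReP, the constitutive targeting subunit, and had TPM values of 71.2, 96.1 and 80.9 across siCtrl 1, 2 and 3 against 81.0, 69.5 and 73.6 across siNUDT5 1, 2 and 3. Its log2 difference was -0.14 (standard error 0.120), and -0.03 without siCtrl 2.

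PPP1R15A is a known transcriptional target of ATF4 and CHOP, and ATF4 mRNA fell in these cells, so its promoter window is printed. The RefSeq window is chr19:48872171-48872470 of GRCh38.p14 on the plus strand, and capitals mark the CREB and ATF site TGACGTCA, which is the same on both strands.
PPP1R15A: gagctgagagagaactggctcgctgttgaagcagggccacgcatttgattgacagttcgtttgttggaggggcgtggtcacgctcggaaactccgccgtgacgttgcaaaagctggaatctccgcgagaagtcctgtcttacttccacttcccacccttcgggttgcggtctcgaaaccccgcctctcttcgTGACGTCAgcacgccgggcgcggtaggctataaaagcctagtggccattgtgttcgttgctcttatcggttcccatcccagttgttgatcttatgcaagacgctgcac
The match began 58 bases before the start. Of the 8 members with a window in the table, PPP1R15A was the only one with this site, which 1.85% of all windows and 2.79% of those of tested genes held. The ATF4 and C/EBP composite site TGATGCAA, searched on both strands, was in 1 of the 8, PPP1R15B, and in 0.866% of all windows and 0.564% of those of tested genes. The ETS core shown for CDC123 was in 3 of the 8. EIF2S2 and EIF2AK1 had no entry. These matches too identify no bound factor. Other spellings of the composite site were not searched, and a link of either site to the ATF4 mRNA level was not tested.

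EIF2B5 encodes the catalytic subunit of eIF2B, which reloads eIF2 with GTP. It had TPM values of 61.9, 59.2 and 68.5 across siCtrl 1, 2 and 3 against 64.5, 71.6 and 63.9 across siNUDT5 1, 2 and 3, and the groups overlapped. The other eIF2B genes, EIF2B1 to EIF2B4, had log2 differences of -0.05 to 0.25 and none of the 4 passed. The ratio of EIF2B5 to their mean was 0.785 ± 0.0494 in siCtrl and 0.795 ± 0.00827 in siNUDT5 (SD, n = 3 per group), a difference within the spread.

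Levels within a group were ordered across genes, since TPM is scaled for length. Length scaling does not correct for reads shared between copies of a gene. How reads shared by EIF2S3 and EIF2S3L were assigned was not given, so the place of EIF2S3 is uncertain. In siCtrl the order of mean TPM was EIF2S2 (362), CDC123 (343), EIF2S1 (266), EIF2AK1 (176), EIF2S3 (117), PPP1R15B (82.7), EIF2AK4 (63.9), EIF2B5 (63.2), PPP1R15A (45.5) and EIF2AK3 (19.1). EIF2S2 and CDC123 differed by less than their SDs, as did EIF2AK4 and EIF2B5. In siNUDT5 the order of mean TPM was EIF2S2 (275), EIF2S1 (269.7), CDC123 (200.3), EIF2S3 (157), EIF2AK1 (121), EIF2AK4 (75.4), PPP1R15B (74.7), EIF2B5 (66.7), PPP1R15A (43.2) and EIF2AK3 (23.1). Here EIF2S2 and EIF2S1, and EIF2AK4 and PPP1R15B, differed by less than their SDs. Within each library the ratio of CDC123 to EIF2S2 was below 1, at 0.947 ± 0.0182 in siCtrl and 0.729 ± 0.0378 in siNUDT5 (SD, n = 3 per group). In siNUDT5 CDC123 was also below EIF2S1, and EIF2S3 and EIF2AK1 changed places. CDC123 ranked 388 among all tested genes by its siCtrl mean.

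Counted over the members, siCtrl and siNUDT5 did not overlap in 5 of 10, with 3 lower and 2 higher in siNUDT5. Over all tested genes the groups did not overlap in 37.3%, with 24.3% higher and 12.9% lower. By the call rule used for all genes (limma on log2(TPM + 1), Benjamini-Hochberg adjusted p under 0.05), 4 of the 10 members were called, CDC123, EIF2S2 and EIF2AK1 lower and EIF2S3 higher, where 16.1% of all genes were called, 10.9% higher and 5.2% lower. Nothing is read from these counts or from those under other settings of the fit, since the members were named with this contrast known. The median log2 difference of the members was -0.02 and that of all genes 0.05. Without siCtrl 2, 6 members were called, EIF2AK3 and EIF2AK4 being added as higher, against 31.1% of all genes. With the replicate number as a block, 2 members were called, CDC123 and EIF2AK1, where 6.04% of all genes were. Over 14 alternative settings these 2 were called in all 14, EIF2S2 in 9 and EIF2S3 in 8. The calls of EIF2S2 and EIF2S3 were lost with the block and without siCtrl 3 or any 1 siNUDT5 library. Without 1 of those libraries 6.24% to 7.09% of all genes were called. The call of EIF2S3 was also lost without siCtrl 1.

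The rest of the initiation pathway was taken from a list of 59 genes, of which 58 were tested, since EIF4EBP3 was listed at 0 in all 6 libraries. The list was written with earlier results of these data known. Its calls and adjusted p-values therefore describe these genes and are not independent tests of them. Of the 58, 4 fell, 1 rose and 53 did not pass, a called share of 8.62% beside the 16.1% of all genes. By direction, 5.2% of all genes were called lower and 10.9% higher. The list's median log2 difference was -0.03. Without siCtrl 2 the median was 0.02, and 10 fell and 6 rose, where the called share of all genes went up to 31.1%, with 9.27% lower and 21.9% higher. Under median-ratio scaling 7 of the list fell and 1 rose, beside 15.8% of all genes called, 7.32% lower and 8.5% higher. Of all called genes 53.7% were then higher, in place of 67.7%. Without siCtrl 3 or any 1 siNUDT5 library 2 to 3 of the 58 were called, beside 6.24% to 7.09% of all genes.

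The mRNA of ATF4, a regulator whose translation goes up when eIF2 is phosphorylated, fell furthest, from 925 ± 89.3 to 488 ± 22.8 TPM (SD, n = 3 per group, log2 change -0.92, limma adjusted p = 0.000748). The other 3 genes of that group did not pass. ATF5 stood at 61.3 ± 9.15 and 46.8 ± 1.62 TPM (SD, n = 3 per group), lower in every siNUDT5 library, with a log2 difference of -0.37 (limma, adjusted p = 0.0605). Without siCtrl 2 it passed, at -0.47 (limma, adjusted p = 0.00125). DDIT3, which encodes CHOP, stood at 15.7 ± 2.60 and 12.6 ± 2.43 TPM (SD, n = 3 per group). KIAA0141, the older symbol of DELE1, encodes the mitochondrial stress messenger that activates HRI. It fell from a mean of 16.6 ± 1.30 TPM to one of 11.6 ± 0.605 TPM (SD, n = 3 per group, log2 change -0.49, limma adjusted p = 0.0151), and this call was lost without siCtrl 3 or any 1 siNUDT5 library and with the replicate block. OMA1, the protease that cleaves DELE1, did not pass, at 14.2 ± 1.93 and 12.7 ± 1.43 TPM, nor did GCN1L1, the partner of GCN2, at 63.6 ± 6.09 and 62.1 ± 2.93 TPM (SD, n = 3 per group). The largest rise among the kinase regulators was that of DNAJC3, at 28.5 ± 8.33 and 38.6 ± 3.64 TPM (SD, n = 3 per group). Its log2 difference of 0.45 did not pass (limma, adjusted p = 0.127). Without siCtrl 2 DNAJC3 passed as higher, at 0.67 (limma, adjusted p = 0.000181).

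BZW1, which encodes a competitor of eIF5 in start codon selection, fell from a mean of 282 ± 51.9 TPM to one of 182 ± 9.58 TPM (SD, n = 3 per group, log2 change -0.62, limma adjusted p = 0.0137), while its paralogue BZW2 did not pass, at 257 ± 24.5 and 250.3 ± 7.55 TPM. The call of BZW1 was lost without siNUDT5 2 or siNUDT5 3. EIF1, the most abundant of the start codon factors, stood at 640.1 ± 16.0 and 599 ± 11.8 TPM (SD, n = 3 per group) and did not pass. In the eIF3 complex, the scaffold that holds eIF2 and the ribosome together, 1 of 13 genes fell, EIF3D, from 438 ± 12.7 to 369 ± 11.8 TPM (SD, n = 3 per group, log2 change -0.25, limma adjusted p = 0.0408). This call was lost in 7 of 14 alternatives: without siCtrl 1, siCtrl 3 or any 1 siNUDT5 library, without the trend and with the replicate block. EIF3E, the most abundant eIF3 mRNA, stood at 1163 ± 181 and 982 ± 59.1 TPM (SD, n = 3 per group) and did not pass.

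In the eIF4 group, which binds the mRNA cap and unwinds the leader, 1 of 11 tested genes rose. EIF4EBP2, which encodes an inhibitor of the cap-binding protein eIF4E, rose from a mean of 49.5 ± 4.73 TPM to one of 76.6 ± 3.93 TPM (SD, n = 3 per group, log2 change 0.62, limma adjusted p = 0.00457). Its paralogue EIF4EBP1 stood at 277 ± 37.6 and 239 ± 14.3 TPM and EIF4G2, the most abundant gene of the group, at 1027 ± 158 and 1192 ± 64.0 TPM (SD, n = 3 per group), and neither passed. Without siCtrl 2 both did, EIF4EBP1 lower with a log2 difference of -0.31 and EIF4G2 higher with 0.34 (limma, adjusted p = 0.00796 and 0.00232). None of the 3 catalytic subunits of protein phosphatase 1 passed: PPP1CA had a log2 difference of 0.26, PPP1CB 0.22 and PPP1CC -0.40. Without siCtrl 2 these were 0.15, 0.46 and -0.22, and PPP1CB passed (limma, adjusted p = 0.00455). Without siCtrl 1 PPP1CC passed, at -0.53 (limma, adjusted p = 0.0355). Of the factors that deliver initiator tRNA without eIF2 none of 4 passed, and DENR came nearest with a log2 difference of -0.41 and adjusted p = 0.0623 (limma). DENR passed as lower in 4 of 14 alternatives, which were median-ratio scaling, quantile normalization, and leaving out siCtrl 1 or siCtrl 2, with log2 differences of -0.47, -0.46, -0.50 and -0.28. The recycling factor gene ABCE1 had a log2 difference of 0.001, or 0.21 without siCtrl 2, and passed in neither case.

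**Figure D4:**
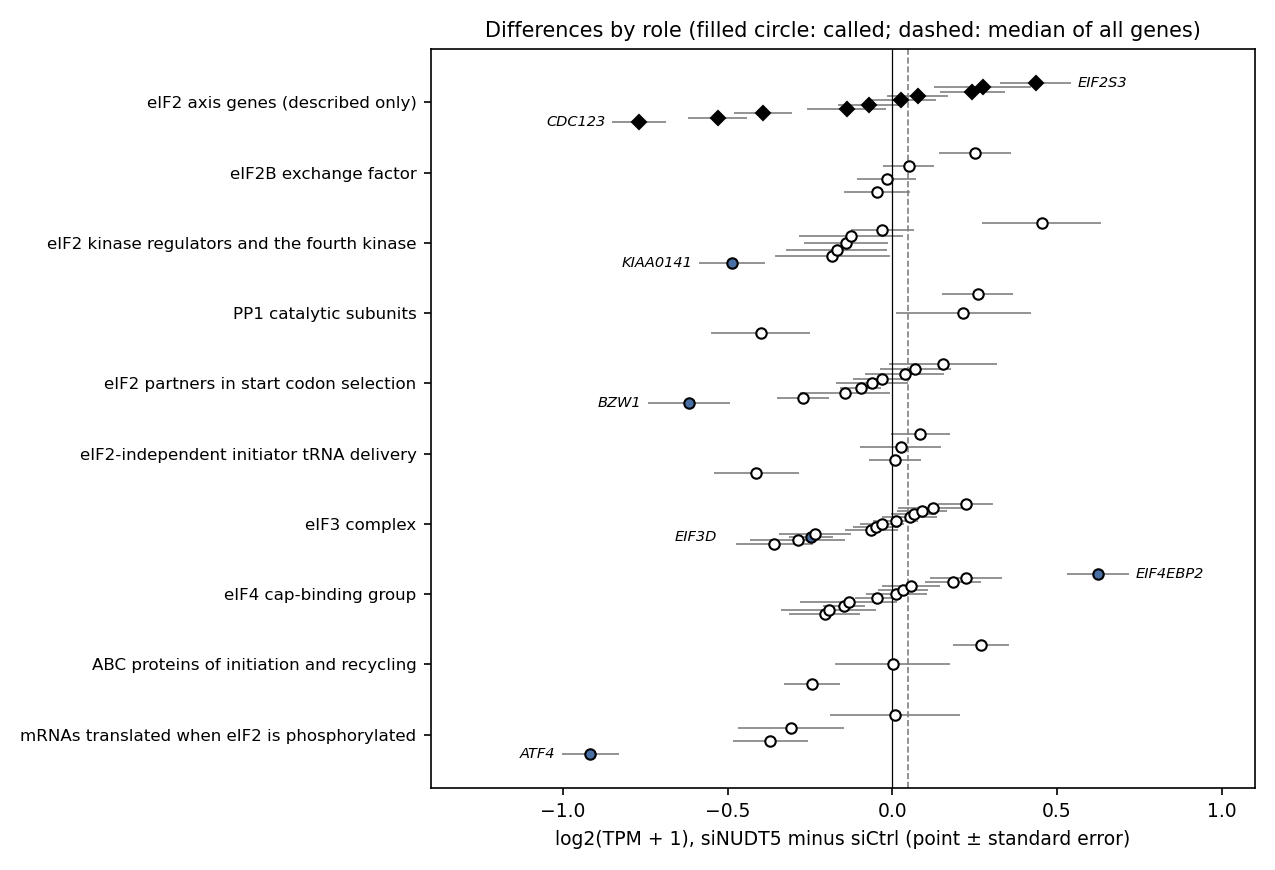
Difference in log2(TPM + 1), siNUDT5 minus siCtrl, with its standard error, for the 10 eIF2 axis genes (diamonds) and for 58 other initiation genes by role (circles, filled where called). The called genes were ATF4, BZW1, KIAA0141 and EIF3D, lower, and EIF4EBP2, higher; the dashed line is the median of all genes, 0.05.

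Genes with a profile like that of CDC123 were sought over the 6 libraries, by the Euclidean distance between log2(TPM + 1) values centred on each gene's mean. Clone-based names and LOC, LINC, MIR, SNOR and RNU symbols were left out of the search and of its counts. The 5 nearest of the remaining tested genes were GTF3C4 (distance 0.0676), UHRF1BP1 (0.0910), SLC9B2 (0.106), DHFRL1 (0.108) and ASNS (0.124). GTF3C4, a subunit of the polymerase III factor TFIIIC, had TPM values of 43.8, 51.6 and 45.3 across siCtrl 1, 2 and 3 against 27.1, 26.3 and 26.6 across siNUDT5 1, 2 and 3. ASNS, which encodes asparagine synthetase, had TPM values of 366, 451 and 402 across siCtrl 1, 2 and 3 against 265, 241 and 242 across siNUDT5 1, 2 and 3. Both shared with CDC123 the highest control value in siCtrl 2 and less spread in siNUDT5 than in siCtrl, as a search for like profiles favours. Of the other members EIF2AK1 was nearest to CDC123, with a distance of 0.298 and 122 genes nearer, followed by EIF2S2 with 0.475 and 415 genes nearer. NUDT5 was far, with a distance of 3.61 and a log2 difference of -3.71. The measure is dominated by the difference between the groups and is a description over libraries of 2 groups.

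A feature that the choice of genes did not use is the mRNA leader before the start codon, where upstream start codons are known to tie translation to eIF2. In the principal transcripts of GENCODE 29, 7 of the 10 members had at least 1 upstream ATG, beside 53.5% of the 11533 tested genes with an annotated leader. EIF2S1 had 8, EIF2AK3 had 5, CDC123, EIF2S3, PPP1R15A and PPP1R15B had 2 each and EIF2S2 had 1. EIF2AK1, EIF2AK4 and EIF2B5 had none. ATF4, the classic case, had 7 in a leader of 882 bases. For each gene the longest principal transcript was read, those of the consensus coding set being preferred. The counts belong to these transcripts and to leaders of unlike length, such as 461 bases in EIF2S1 and 43 in EIF2AK4. The members with lower mRNA, CDC123, EIF2S2 and EIF2AK1, thus had 2, 1 and none, and EIF2S3, with higher mRNA, had 2.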

How the data were processed

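RNA from U2OS cells was profiled 48 hours after siRNA transfection with a strand-specific KAPA mRNA kit, per the labels' protocols, in 3 siCtrl and 3 siNUDT5 libraries grouped by their titles. The authors deposited TPM per gene symbol, and STAR 2.7.3a, DESeq2 1.22.1 and hg19 appear in the submitters' processing notes, with no role given. Annotation, counting and use of strand: not given in the sources used here.

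TPM are not counts, so limma 3.58.1 in R 4.3.3 (lmFit, eBayes with a trend) was fitted to log2(TPM + 1), as a two-sided comparison of siNUDT5 with siCtrl in the 12236 genes whose mean reached 1 TPM, with Benjamini-Hochberg adjustment and a threshold of 0.05. This scale understates the change of low genes. The fit was tested on simulated data over 12236 genes for siNUDT5 minus siCtrl: 49 of 100 genes changed by 0.5 (log2) and 98 of 100 changed by 1 were recovered, with 9 false calls. For relative depth, genes below 0.3 TPM in siCtrl 1 were compared with that library; 72.0% to 81.5% of their ratios matched, to 0.1%, a quotient of whole numbers no larger than 5. How many reads lie behind a gene was not recovered, since a read's worth depends on gene length.

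The members, the list of other initiation genes and the rules were chosen with earlier results of these data known. Named genes were the members, NUDT5, up to 15 called genes of the list, the most abundant gene of each of its roles, the 5 genes nearest to CDC123 and the neighbours of the NUDT5 and CDC123 pair; other list genes were named for their role after their values were seen. The fit was repeated with pseudocounts 0.1 and 5, unfiltered, with a minimum mean of 5 TPM, after median-ratio or quantile scaling, without the trend, with a replicate block, and without each library in turn. Promoters came from RefSeq (GRCh38.p14) and leaders from GENCODE 29, by symbol. Python 3.11.15, pandas 2.3.3, numpy 2.4.6 and matplotlib 3.10.9 were used.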

Additional observations from a re-analysis of the deposited data

How the results depend on the processing

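All 1970 called genes split into 1334 higher and 636 lower, 67.7% higher, against 53.7% under median-ratio scaling and 51.3% under quantile normalization. The count was 739 with the replicate number as a block, and 764 to 3804 without 1 library, the highest without siCtrl 2. Of the initiation list 5 genes were called, 8 under median-ratio scaling, 8 under quantile normalization, 3 with the replicate block, and 2 to 16 without 1 library, again the highest without siCtrl 2. In the same order, the called share of all genes was 16.1%, 15.8%, 16.2%, 6.04%, and 6.24% to 31.1%. No pairing by number was seen: deviations of same-numbered libraries from their group means correlated at -0.43, -0.54 and -0.04 across genes, and no library correlated best with its own number. With 3 libraries a group, 1 of them the outlying siCtrl 2, this check cannot exclude a pairing. The CDC123 log2 difference ranged from -0.83 to -0.71 over the alternatives, on the same side of 0 in all. The CDC123 to EIF2S3 ratio in siNUDT5 relative to siCtrl was 0.418 to 0.443 without 1 library and 0.619 with the mean of the 3 subunits as denominator. EIF2S1 was the only member whose sign changed, in 3 alternatives. With 3 libraries a group and TPM alone, counting error per gene could not be given.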
